A study of Mus musculus with 4 samples.

Results

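The genes described here encode the core of the machinery that releases neurotransmitter from the presynaptic terminal. They are the 10 genes Syp, Syn1, Syn2, Syt1, Syt4, Snap25, Vamp2, Stx1a, Cplx1 and Cplx2, chosen by symbol, and each matched 1 of the 34866 gene identifiers of the count table. RNA was sequenced from primary neural stem and progenitor cells of wildtype mouse embryos, taken from the dorsal telencephalon at E11.5 and kept for 5 days as neurospheres, floating spheres of cells, with basic fibroblast growth factor at 20 ng/ml. All cultures received lentivirus. The shControl group carried the control short hairpin vector CS-EG-shControl at a multiplicity of infection of 30. The triple knockdown group (sh3F in the sample titles) carried 3 vectors together at 10 each, with the Phf21b hairpin in pCS-EG and the Zfp7 and Zfp57 hairpins in pLV-EG. Each group had 2 libraries. The number of vectors and part of the backbones therefore differ between the groups along with the hairpin targets. The genotype label names the targets Phf21, Sfp7 and Zfp57, and the spellings of the treatment label were used. The labels do not say whether embryos were pooled or whether the replicates were separate cultures, so p-values reflect only how these libraries vary, and that variation may be technical.

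At a synapse, transmitter is stored in vesicles that dock at the terminal membrane and fuse with it when calcium enters. Fusion is driven by SNARE proteins, with synaptobrevin 2 (Vamp2) on the vesicle and syntaxin 1A (Stx1a) and SNAP-25 (Snap25) on the plasma membrane, which zip into a bundle of helices. Synaptotagmins sense calcium, complexins clamp and promote the partly assembled SNARE bundle, synapsins hold vesicles in a reserve pool, and synaptophysin (Syp) is an abundant protein of the vesicle membrane. In the embryonic cortex these genes are typical of postmitotic neurons rather than of dividing progenitors, and many of them are transcribed before synapses form.

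All 10 genes were measured at a lower mean level in the triple knockdown than in shControl, and 0 of 10 passed the threshold of an adjusted p under 0.05 (edgeR's quasi-likelihood test, Benjamini-Hochberg adjustment over 14050 tested genes). The synapsins had the lowest fold changes, with Syn1 at 57.5% and Syn2 at 68.2% of the control level, followed by Stx1a at 72.0%, Syt4 at 74.0%, Syt1 at 77.5%, Syp at 77.7% and Vamp2 at 79.0%. Cplx2, Snap25 and Cplx1 measured 93.0%, 96.6% and 97.5% of control. In bulk RNA, fewer neurons and less of these transcripts per neuron cannot be told apart. Across the table, 116 genes were called lower and 76 higher, 0.826% and 0.541% of those tested and 1.37% together. Without adjustment 6 of the 10 genes had a p under 0.05, all on the lower side, where 6.85% of tested genes had one (12% on either side). Scaling by library size alone turned the split of calls over all genes to 28 lower and 77 higher and left 0 of the 10 with an unadjusted p under 0.05. The groups did not overlap, with the knockdown lower, for 7 of the 10, against 21.7% of all tested genes. A fold change below 0 was found for 51.1% of all tested genes. The median log2 fold change was -0.37 for the 10 genes and -0.01 for all tested genes. The 10 genes were chosen with earlier results of these data known, so these shares describe them and are not a test. All 10 were also higher in shControl 1 than in shControl 2, so they cannot be counted as independent genes. DESeq2 also called 0 of the 10, with 1 at an unadjusted p under 0.05, and limma-voom called 0, with 6 at an unadjusted p under 0.05.

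**Figure D1:**
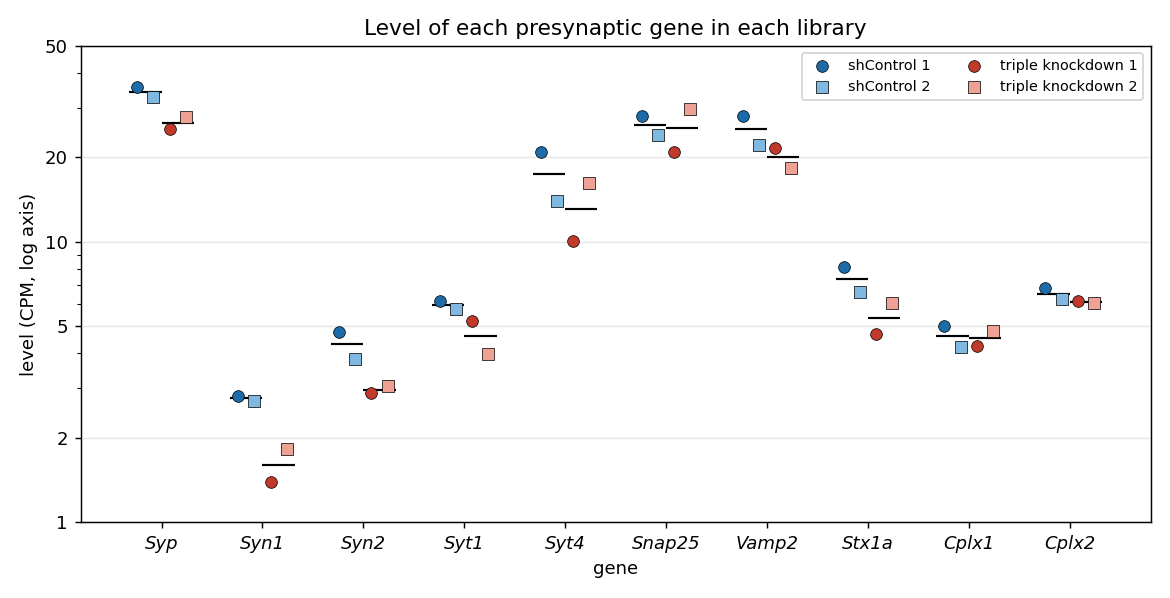
Level of each of the 10 presynaptic genes (CPM, on a log axis) in the 2 shControl libraries (blue) and the 2 triple knockdown libraries (red); points are single libraries and bars are group means. Syn1 lies at 2.83 and 2.70 in the controls and 1.39 and 1.82 in the knockdown, whereas the Snap25 and Cplx1 libraries interleave.

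The 4 libraries held 14694387 (shControl 2) to 20779211 (shControl 1) estimated counts. Genes of mitochondrial DNA took 30.3% and 33.9% of them in shControl and 26.6% and 28.5% in the triple knockdown. With those genes left out of the fit, the median log2 fold change of the 10 presynaptic genes was -0.37 and 0 passed the threshold. Levels below are CPM, counts relative to the size of the library after scaling by edgeR's TMM method, and the 4 values of a gene are always given in the order shControl 1, shControl 2, triple knockdown 1, triple knockdown 2. None of the 3 targeted genes passed the test. Phf21b measured 7.25, 7.36, 5.49 and 6.45 CPM and Zfp57 14.6, 11.8, 10.7 and 9.32 CPM, both with the knockdown libraries below the controls. Zfp7 measured 1.67, 2.25, 1.97 and 0.977 CPM, so the groups overlapped, and the library labelled triple knockdown 1 lay above shControl 1 and does not bear out its label for this gene. Their adjusted p-values were 0.644, 0.341 and 0.80 in the same edgeR test. Protein was not analysed here. The 10 presynaptic genes had mean levels of 2.19 to 30.4 CPM. Of the tested genes, 24% had a lower mean level than the lowest of them and 15.5% a higher one than the highest.

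The synapsins are phosphoproteins that coat vesicles and tether them to one another and to actin. Syn1 (ENSMUSG00000037217, GRCm38 chromosome X, 20860511 to 20921004, minus strand) measured 2.83, 2.70, 1.39 and 1.82 CPM. The highest knockdown library lay below the lowest control library, and the control libraries differed from each other by less than either did from the knockdown. Its mean went from 2.77 ± 0.0911 to 1.60 ± 0.310 CPM (SD, n = 2 each), 57.5% of control with a 95% interval of 35.1% to 94.3% (edgeR adjusted p = 0.334 for a log2 fold change of -0.80, SE 0.36). These levels rest on few reads, 61, 36, 26 and 28 estimated counts. Syn2 (ENSMUSG00000009394, chromosome 6, 115134902 to 115282006, plus strand) measured 4.78, 3.83, 2.88 and 3.06 CPM, again with no overlap between the groups. That is 68.2% of control, with an interval of 46.7% to 99.6% (edgeR adjusted p = 0.409 for a log2 fold change of -0.55, SE 0.27). The Syn2 control libraries were 1.25-fold apart, and 1.28% of its exonic bases overlap the antisense gene Timp4, which lies within it. The third synapsin gene, Syn3, measured 1.07, 1.05, 1.33 and 1.56 CPM (edgeR adjusted p = 0.782 for a log2 fold change of 0.44, SE 0.46), and its difference from Syn1 and Syn2 was not tested.

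The start of the Syn1 gene holds one of the textbook binding sites of the repressor REST, which keeps neuronal genes silent in cells that are not neurons, and the promoters are shown for that site and for 3 members with different roles. Of the 10 genes, 7 matched an entry of the RefSeq promoter table (build GRCm38.p6), with 9 windows between them, each of 250 bases before and 50 after a transcript start. No entry was found for Snap25, Vamp2 and Syt4. The windows were searched on both strands for the left and right parts of the REST element, TTCAGCACC and GGACAG, 2 bases apart with at most 1 mismatch in each, for the cyclic AMP response element TGACGTCA, and for the GC box GGGCGG. Capitals mark these matches, 5′ to 3′ along the gene.
Syn1, chrX:20920869-20921168, minus strand: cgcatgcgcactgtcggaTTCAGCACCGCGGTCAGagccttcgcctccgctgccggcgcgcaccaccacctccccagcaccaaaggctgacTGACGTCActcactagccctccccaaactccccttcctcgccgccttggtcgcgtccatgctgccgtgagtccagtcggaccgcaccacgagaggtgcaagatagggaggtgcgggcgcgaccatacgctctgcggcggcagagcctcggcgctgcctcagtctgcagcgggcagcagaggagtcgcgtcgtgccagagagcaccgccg
Stx1a, chr5:135023232-135023531, plus strand: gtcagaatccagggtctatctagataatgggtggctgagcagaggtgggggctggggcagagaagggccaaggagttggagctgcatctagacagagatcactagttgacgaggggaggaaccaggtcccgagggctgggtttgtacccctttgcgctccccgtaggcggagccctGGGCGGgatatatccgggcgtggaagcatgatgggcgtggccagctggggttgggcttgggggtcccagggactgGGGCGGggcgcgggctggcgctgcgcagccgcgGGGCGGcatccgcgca
Syp, chrX:7638330-7638629, plus strand: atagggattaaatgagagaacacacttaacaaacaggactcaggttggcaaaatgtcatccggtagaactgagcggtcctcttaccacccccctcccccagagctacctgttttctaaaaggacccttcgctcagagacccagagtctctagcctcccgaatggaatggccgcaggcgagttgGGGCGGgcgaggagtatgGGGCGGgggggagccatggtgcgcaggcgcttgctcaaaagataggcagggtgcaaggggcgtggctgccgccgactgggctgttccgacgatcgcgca
Cplx1, chr5:108549978-108550277, minus strand: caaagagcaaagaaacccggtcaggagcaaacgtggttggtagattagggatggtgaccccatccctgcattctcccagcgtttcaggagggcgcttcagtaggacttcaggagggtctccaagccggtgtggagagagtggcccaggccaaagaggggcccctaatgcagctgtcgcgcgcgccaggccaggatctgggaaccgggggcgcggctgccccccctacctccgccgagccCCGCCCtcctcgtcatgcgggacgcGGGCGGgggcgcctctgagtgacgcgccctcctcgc

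The REST element matched in the Syn1 window, with its first base 232 bases before the start, the left part exact and the right part with 1 mismatch. It matched in none of the other 6 genes' windows, and in 32 of all 32851 windows (0.0974%). The Cplx2 window lies 68793 bases from the gene start in the GENCODE M21 annotation, so that start was not searched. For Syn2, 1 of its windows lies 104092 bases from its start in that annotation. Syn1 also held the cyclic AMP response element, which 1.79% of all windows hold. GC boxes were found in 5 of the 9 windows, 1 each of Cplx1, Stx1a, Syn2, Syp and Syt1, and in 35.7% of all windows. The Syn1 window lacked one, while Stx1a had 3 and Syp and Cplx1 had 2 each. GC content was 68.3% for Syn1, 66.3% for Stx1a, 67.0% for Cplx1 and 59.0% for Syp, against a median of 52.7% over all windows. These matches describe letters in the windows, and binding was not measured.

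Of the SNARE genes, Stx1a (ENSMUSG00000007207, chromosome 5, 135023482 to 135051100, plus strand), the syntaxin of the plasma membrane, measured 8.13, 6.61, 4.69 and 6.06 CPM, which is 72.0% of the control level (interval 53.0% to 97.8%; edgeR adjusted p = 0.362 for a log2 fold change of -0.47, SE 0.22). The groups did not overlap, but the nearest libraries, shControl 2 and triple knockdown 2, were closer to each other than to their own partners. Vamp2 (ENSMUSG00000020894, chromosome 11, 69088490 to 69092384, plus strand), the vesicle SNARE, measured 28.2, 22.2, 21.7 and 18.3 CPM, which is 79.0% of the control level (63.4% to 98.6%; edgeR adjusted p = 0.368 for a log2 fold change of -0.34, SE 0.16). Here shControl 1 stood apart, 1.27-fold above shControl 2, which was nearly level with triple knockdown 1. Snap25 (ENSMUSG00000027273, chromosome 2, 136713453 to 136782428, plus strand), which contributes a pair of helices to the bundle, measured 28.1, 24.1, 21 and 29.8 CPM. Both the highest and the lowest value belonged to the knockdown, so the groups overlapped fully, and the level was 96.6% of control (77.6% to 120%; edgeR adjusted p = 0.945 for a log2 fold change of -0.05, SE 0.16). The intervals of the 3 genes overlap, and the difference between Snap25 and the other SNARE genes was not tested.

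**Figure D2:**
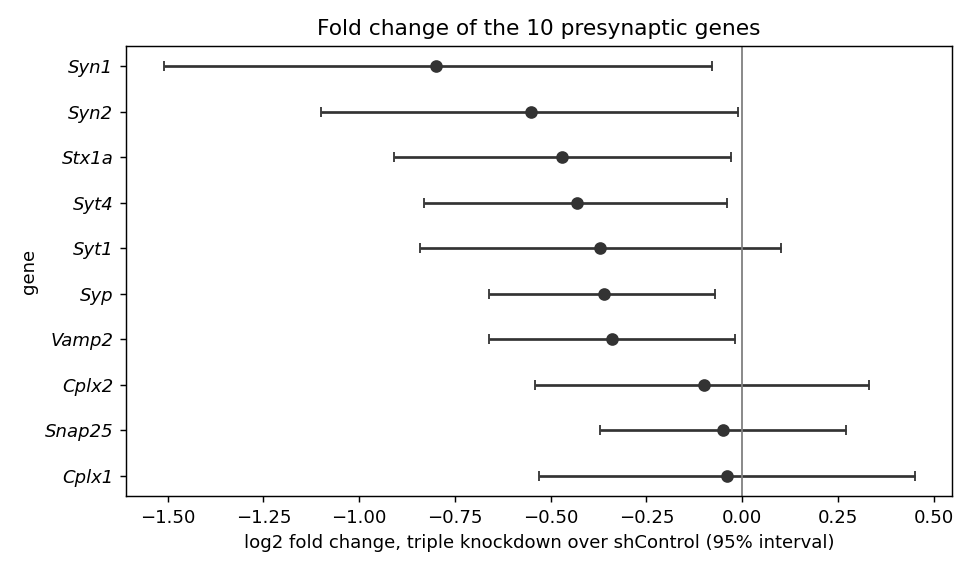
Log2 fold change (triple knockdown over shControl, x axis) of each of the 10 genes with its 95% interval, ordered by size. The intervals of Syn1, Syn2, Stx1a, Syt4, Syp and Vamp2 end below 0, before any adjustment for the number of genes tested, and those of Syt1, Cplx2, Snap25 and Cplx1 include 0.

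The calcium sensor Syt1 and its relative Syt4 differed in how well their libraries separated. Syt1 (ENSMUSG00000035864, chromosome 10, 108497650 to 109010982, minus strand), the sensor for fast, synchronous release, measured 6.13, 5.78, 5.22 and 3.97 CPM. The controls were within 1.06-fold of each other and above both knockdown libraries, yet the interval of 56.0% to 107% of control included 100% (edgeR adjusted p = 0.567 for a log2 fold change of -0.37, SE 0.24). Syt4 (ENSMUSG00000024261, chromosome 18, 31437808 to 31447406, minus strand), a synaptotagmin of secretory vesicles whose first C2 domain binds calcium poorly, measured 20.9, 14.0, 10.1 and 16.2 CPM. Its libraries were the most scattered of the 10 genes, 1.49-fold apart in shControl and 1.60-fold apart in the knockdown, and triple knockdown 2 lay above shControl 2. The level was 74.0% of control (56.1% to 97.6%; edgeR adjusted p = 0.353 for a log2 fold change of -0.43, SE 0.20). Of the 31-mers of Syt4, 12.3% also occur in Gm26658, which overlaps it on the opposite strand. The sources used here do not say whether the counting used strand, so reads of the pair cannot be told apart where they overlap.

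Syp (ENSMUSG00000031144, chromosome X, 7638471 to 7653256, plus strand) had the lowest p of the 10 genes. Its libraries measured 35.6, 32.8, 25.2 and 28.0 CPM, and the groups were further apart than the libraries within either of them. The level was 77.7% of control (63.2% to 95.4%; edgeR adjusted p = 0.264 for a log2 fold change of -0.36, SE 0.15, unadjusted p = 0.0168). By p it ranked 891 among the 14050 tested genes. The antisense gene Gm14703 overlaps 16.8% of the exonic bases of Syp, and 17.1% of its 31-mers occur in other genes, 16.4% in Gm14703.

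The complexins, small proteins that bind the assembled SNARE bundle, were the members nearest to control together with Snap25. Cplx1 (ENSMUSG00000033615, chromosome 5, 108518554 to 108550024, minus strand) measured 5.02, 4.21, 4.26 and 4.82 CPM, with both knockdown libraries between the controls (97.5% of control, interval 69.4% to 137%; edgeR adjusted p = 0.975 for a log2 fold change of -0.04, SE 0.25). Cplx2 (ENSMUSG00000025867, chromosome 13, 54371349 to 54383917, plus strand) measured 6.83, 6.24, 6.13 and 6.06 CPM. Its knockdown libraries lay just under the lower control library, by less than the controls differed from each other (93.0% of control, interval 68.8% to 126%; edgeR adjusted p = 0.907 for a log2 fold change of -0.10, SE 0.22). Both intervals include the 72.0% measured for Stx1a, and the difference between the complexins and the other members was not tested. The pair shared almost no sequence, since 0.091% of the 31-mers of Cplx1 were found in another gene and 1.6% of those of Cplx2.

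Compared per length, the 10 genes spanned about an order of magnitude in the control libraries. The scale is CPM per kb of merged exons in the GENCODE M21 annotation. On it Vamp2 measured 6.62 and Syp 6.56, and their control libraries overlapped (7.40 and 5.84 against 6.83 and 6.29). Syt4 at 4.47 and Snap25 at 3.85 followed, also overlapping, then Stx1a at 2.76, Cplx1 at 2.11, Cplx2 at 1.33, Syn1 at 0.839, Syt1 at 0.715 and Syn2 at 0.613. The neighbours from Stx1a to Syn2 did not overlap in their control libraries, though Syt1 and Syn2 were as close as 0.694 and 0.680. The order depends on which exons are used. Per kb of the longest coding transcript, Syp stood at 13.2, Snap25 at 12.3 and Vamp2 at 11.4, and Syn1 was the lowest at 0.849, below Syt1 at 1.24 and Syn2 at 1.12. On both scales Vamp2, Syp, Syt4 and Snap25 were the 4 highest and Syn1, Syt1 and Syn2 the 3 lowest. The genes with the lowest fold changes, the synapsins, were thus among those with the lowest levels per length.

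The control libraries themselves differed in these genes. All 10 were higher in shControl 1 than in shControl 2, by 1.05-fold to 1.49-fold, while 50.9% of all tested genes were. These were the deepest and the shallowest library, with TMM factors of 1.037 and 0.907. The part of depth and scaling in this difference was not tested. In the knockdown, 7 of the 10 were higher in replicate 2 than in replicate 1, against 48.9% of all tested genes. Without shControl 1 the median log2 fold change of the 10 genes was -0.23, 8 of 10 were below 0 and 0 had an unadjusted p under 0.05. Without shControl 2, a fit that leaves 1 control library, the median was -0.44 and Syt4 had a log2 fold change of -0.67. Without triple knockdown 1 the median was -0.29 with 8 of 10 below 0, and without triple knockdown 2 it was -0.38 with 10 of 10 below 0. The genes below 0 in every one of these fits were Syp, Syn1, Syn2, Syt1, Syt4, Vamp2, Stx1a and Cplx2. Syn1 ranged from -1.0 to -0.60 and Syp from -0.44 to -0.29, whereas Syt4 ranged from -0.80 to -0.11, Vamp2 from -0.48 to -0.15, Stx1a from -0.66 to -0.29, Syn2 from -0.68 to -0.37 and Syt1 from -0.59 to -0.19.

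**Figure D3:**
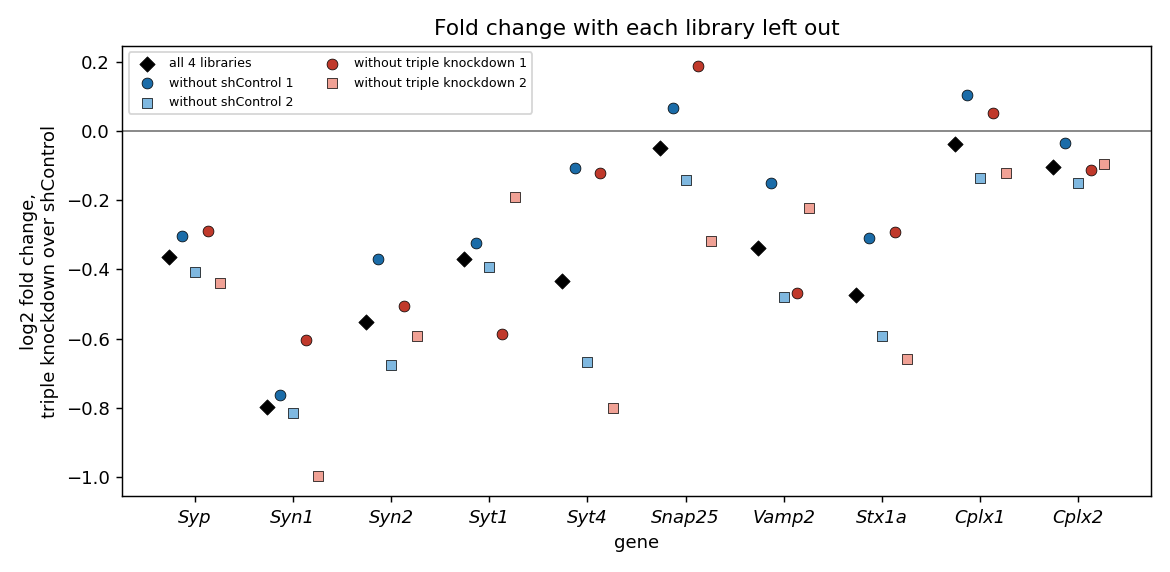
Log2 fold change (triple knockdown over shControl, y axis) of each of the 10 genes with all 4 libraries (black) and with each library left out in turn. Syn1 stays between -1.0 and -0.60, Syt4 moves from -0.80 to -0.11, and Snap25 and Cplx1 cross 0.

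The sums of the presynaptic genes and of the neuron markers are given side by side. The summed level of the 10 genes was 147, 122, 103 and 118 CPM, and that of 20 neuron markers was 1850, 1660, 1410 and 1440 CPM. Both sums were lower in each knockdown library than in each control library, and both were higher in shControl 1 than in shControl 2. Per 100 CPM of neuron markers the 10 genes made up 7.90, 7.38, 7.27 and 8.19 CPM, with the highest and the lowest value both in the knockdown. The sum of the 10 rests mostly on Syp, Snap25, Vamp2 and Syt4, at 35.6, 28.1, 28.2 and 20.9 CPM in shControl 1. It says little about Syn1 and Syn2, at 2.83 and 4.78 CPM in that library. The part of neuron content in the fold changes was not tested. Of the 20 markers 3 fell, 0 rose and 17 did not pass, with a median log2 fold change of -0.27, and 14 had both knockdown libraries below both controls. Of all tested genes, 0.826% were called lower and 21.7% had both knockdown libraries below both controls. Those that fell were the neuronal tubulin gene Tubb3 (118, 88.6, 64.3 and 61.6 CPM, adjusted p = 0.000445 in edgeR), the endosomal protein gene Nsg2 (204, 167, 124 and 128 CPM, adjusted p = 0.0144) and Celf4, which encodes an RNA-binding protein (24.2, 25.8, 17.5 and 15.9 CPM, adjusted p = 0.0437). These calls were lost without either triple knockdown library and with scaling by library size alone, that of Nsg2 also without shControl 1, and that of Celf4 also with DESeq2 and with a replicate block.

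Progenitor markers summed to 23000, 28100, 20600 and 23300 CPM over 10 genes. Nearly all of this was Fabp7, a fatty acid binding protein gene of radial glia, at 22400, 27600, 20100 and 22800 CPM. The other 9 summed to 553, 499, 529 and 562 CPM, less than the 20 neuron markers. Of the 10 genes 0 were past the threshold, with a median log2 fold change of -0.21. Vim, which encodes the intermediate filament vimentin, measured 307, 259, 321 and 337 CPM (edgeR adjusted p = 0.576). It was 1 of 10 progenitor markers with both knockdown libraries above both controls, where 19.6% of all tested genes did. For 3 of the 10 both lay below, where 21.7% of all tested genes did. A fold change below 0 was found for 7 of the 10 and for 51.1% of all tested genes. GABAergic neuron markers, 0 of 6 tested past the threshold, summed to 84.8, 75.9, 62.3 and 64.7 CPM. Intermediate progenitor markers, 0 of 5, summed to 54.4, 53.5, 49.1 and 49.8 CPM. Most of that sum was Btg2, at 37.9, 37.7, 37.4 and 36.9 CPM. Eomes measured 3.3, 4.36, 1.92 and 1.76 CPM (edgeR adjusted p = 0.0907 for a log2 fold change of -1.03, SE 0.32). Of the 5, 4 had a fold change below 0 and 1 above. Astrocyte markers summed to 175, 161, 122 and 128 CPM, and of 6 tested Sparcl1 fell (34.8, 31.3, 19.7 and 20.5 CPM, edgeR adjusted p = 0.00268), a call lost without either triple knockdown library and with scaling by library size alone. Oligodendrocyte lineage markers (107, 99.8, 103 and 95.8 CPM), microglia and myeloid markers (31.5, 34.8, 35.1 and 29.8 CPM) and endothelial and mural markers (6.78, 8.58, 7.36 and 7.72 CPM) had sums that overlapped between the groups, with 0 of 7, 0 of 7 and 0 of 3 tested genes past the threshold. Erythroid markers summed to 25.0, 27.5, 39.4 and 37.4 CPM, and of 4 tested the embryonic globin gene Hbb-y rose (12.3, 12.3, 21.6 and 16.4 CPM, adjusted p = 0.0399 in edgeR), a call lost without either triple knockdown library, with scaling by library size alone, with DESeq2 and with a replicate block. No marker of these lists was at 0 in all libraries. Gfap, the defining astrocyte filament, averaged 0.0351 CPM and Csf1r, a defining microglial receptor, 0.0551 CPM, each the lowest of its list. The highest were Aldoc at 84.8 CPM in the astrocyte list and Lyz2 at 13.3 CPM in the microglia and myeloid list. The part of these shifts in the presynaptic values was not tested.

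**Figure D4:**
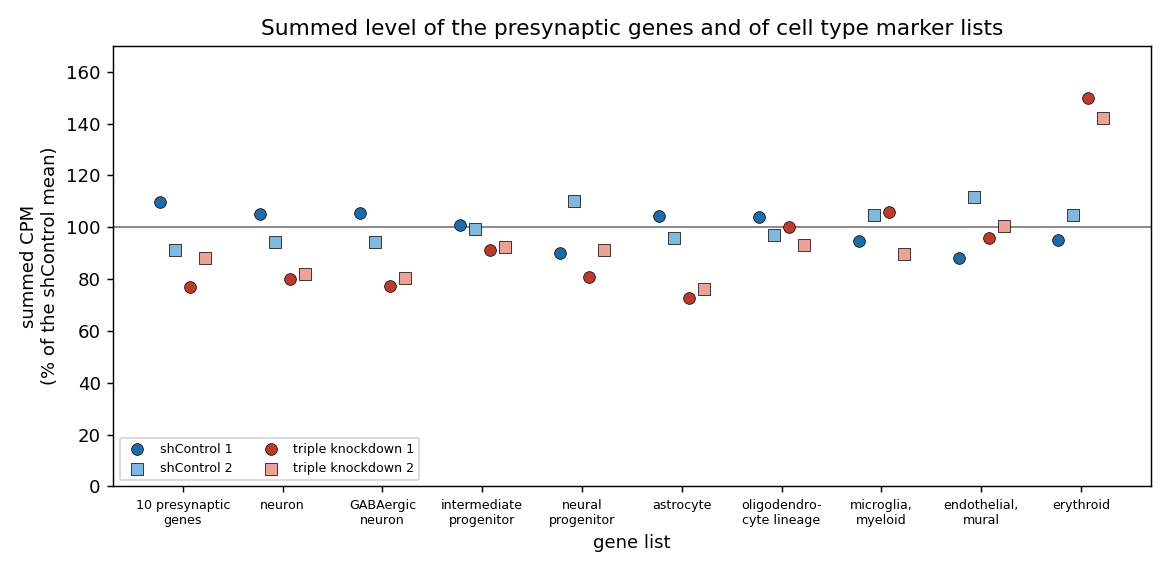
Summed CPM of the 10 presynaptic genes and of 9 lists of cell type markers in each library, as a percentage of the mean of the 2 shControl libraries (grey line at 100). The sums of the presynaptic genes, neuron, GABAergic neuron, intermediate progenitor and astrocyte lists are lower in both knockdown libraries than in both controls, and the erythroid sum is higher.

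Among the other genes of the release pathway, few passed the test and most lists had medians below 0. In the list of other vesicle membrane proteins and transporters, 1 of 20 tested genes fell, 0 rose and 19 did not pass, with a median log2 fold change of -0.33. Of the 20, 11 had both knockdown libraries below both controls and 2 had both above. Of all tested genes, 21.7% lay below in this way and 19.6% above, and 0.826% were called lower. These counts describe the lists and are not a test. The gene that fell was Syngr3, a synaptogyrin and thus a relative of synaptophysin, at 6.46, 5.93, 3.73 and 2.93 CPM (edgeR adjusted p = 0.0424 for a log2 fold change of -0.89, SE 0.25), 54.0% of control. The groups were well apart, and the call held in 5 of 12 alternatives: it was lost with scaling by library size alone, DESeq2, limma-voom or a replicate block and without shControl 1 or either triple knockdown library. Of the other synaptotagmins 0 of 11 tested passed, with a median of -0.43, and 6 had both knockdown libraries below both controls and 1 both above. Syt5 measured 10.6, 9.69, 6.18 and 6.38 CPM (edgeR adjusted p = 0.0577 for a log2 fold change of -0.70, SE 0.20), and the abundant Syt11, a close relative of Syt4, 42.2, 42.9, 39.2 and 37.7 CPM (edgeR adjusted p = 0.756). Syt5 thus missed the threshold by little, with no overlap between the groups.

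Genes that prime vesicles and build the active zone, the site of fusion, had 0 of 24 tested past the threshold and a median of -0.19, with 19 below 0. Both knockdown libraries lay below both controls for 10 of the 24 and above both for 2. Of all tested genes, 51.1% were below 0, 21.7% had both knockdown libraries below both controls and 19.6% had both above. Rab3a, the vesicle GTPase, measured 34.8, 30.3, 28.1 and 23.3 CPM (edgeR adjusted p = 0.327), and the liprin gene Ppfia1 9.93 ± 2.22 against 12.3 ± 1.19 CPM (SD, n = 2 each; edgeR adjusted p = 0.524). Partners and assembly factors of the SNAREs had 0 of 12 past the threshold and a median of -0.12, with 2 separated below the controls in this way and 1 above. Snap47 measured 34.9, 29.7, 26.2 and 25.4 CPM (edgeR adjusted p = 0.344), and Snapin 20.3, 17.7, 21.1 and 19.6 CPM (adjusted p = 0.885). Subunits of presynaptic calcium channels had 0 of 10 past the threshold and a median of -0.35, with 5 separated below the controls and 1 above. The auxiliary subunit genes Cacnb3 and Cacna2d1 measured 14.6, 9.01, 7.68 and 7.95 CPM, and 12.3, 14.0, 10.1 and 9.71 CPM (edgeR adjusted p = 0.107 and 0.345). Vesicle recycling genes had 0 of 19 past the threshold, with 17 below 0, a median of -0.30, 10 separated below the controls and 0 above. Of these, the clathrin light chain gene Clta measured 108, 88.3, 106 and 101 CPM and the adaptor gene Ap2m1 86.8, 70.0, 65.4 and 62.1 CPM (edgeR adjusted p = 0.899 and 0.335).

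SNAREs that work in cells of all kinds were centered on 0, with a median of 0.00 on the log2 scale over 24 tested genes, 12 below and 12 above 0. Of these 1 fell, 0 rose and 23 did not pass. The gene that fell was Ykt6, a SNARE of the Golgi and of autophagosomes, at 29.0, 23.4, 15.4 and 15.8 CPM (edgeR adjusted p = 0.00317 for a log2 fold change of -0.75, SE 0.16), a call held in 9 of 12 alternatives and lost without either triple knockdown library and with scaling by library size alone. Both knockdown libraries lay below both controls for 3 of the 24 genes and above both for 4, where 21.7% and 19.6% of all tested genes did. REST and its LSD1-CoREST partners, a list that also holds the targeted Phf21b and its paralog Phf21a, had 0 of 12 past the threshold and a median of -0.14. Among them Hdac2 measured 147, 134, 119 and 149 CPM and the demethylase gene Kdm1a 27.5, 27.8, 22.8 and 23.8 CPM (edgeR adjusted p = 0.895 and 0.557). The difference between any of these lists and the 10 genes was not tested.

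**Figure D5:**
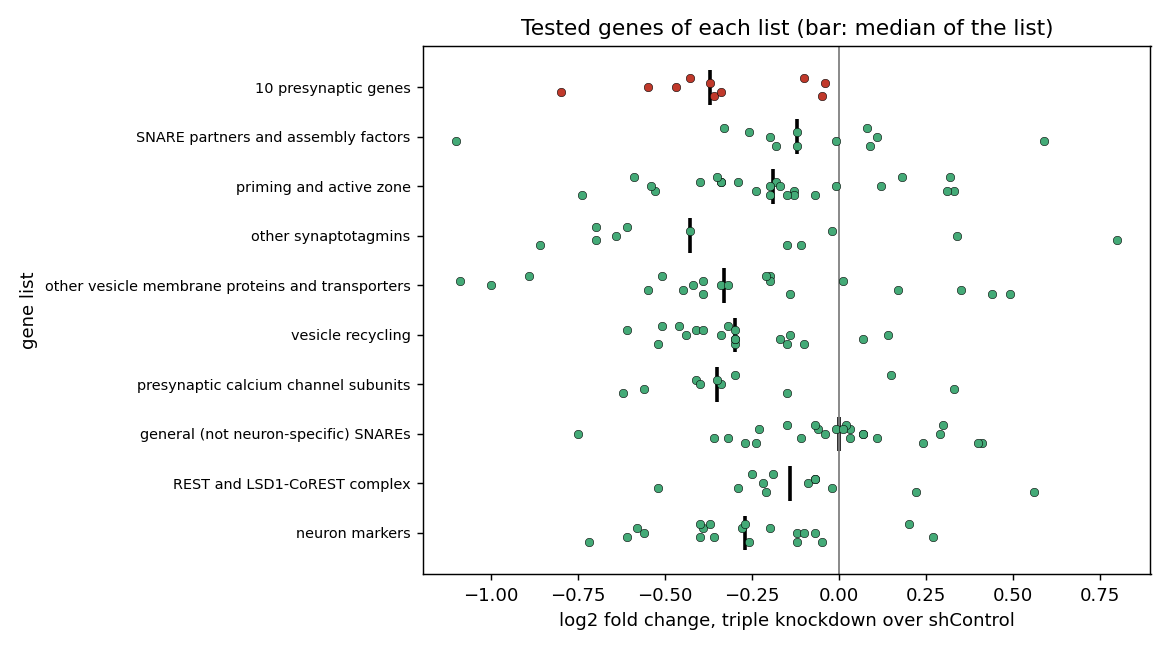
Log2 fold change (triple knockdown over shControl, x axis) of every tested gene in the group of 10, in 8 lists of related genes and in the neuron marker list; black bars are list medians. The 10 genes lie from -0.80 to -0.04 with a median of -0.37, and the SNAREs of all cells center on 0.00.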

How the data were processed

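The deposited file is a single table of unnormalized estimated counts by gene, which the authors made with Salmon and with GRCm38 and mm10 as builds, per the submitters' processing notes. The Salmon version, annotation and strand setting: not given in the sources used here. A quantifier of this kind divides reads shared between genes by a model, so 23.1% to 25.1% of values were not whole, and they were rounded. All columns belonged to samples of the series. Identifiers were matched without version to GENCODE M21 (GRCm38), which named 34652 of 34866. The test was edgeR 4.0.16 (R 4.3.3) with TMM scaling. Low counts were removed with filterByExpr at a minimum of 10, leaving 14050 genes, among them all 10 described here. It used a robust quasi-likelihood fit, two-sided, with Benjamini-Hochberg adjustment over all tested genes at 0.05. The script was tested on simulated data. SE is the log2 fold change divided by the square root of F, and 95% intervals follow from it. limma 3.58.1 and DESeq2 1.42.0 were alternatives. The members and lists were chosen with earlier results of these data known, and lists were not given set tests. Named from each list of pathway genes were the genes past the threshold (at most 4, smallest p first) or, with none past it, the 2 with the highest mean CPM. Marker lists are given by their sums and the genes past the threshold. Syn3, Fabp7, Vim, Btg2, Eomes, Gfap, Csf1r, Aldoc and Lyz2 were named outside this rule, after their values were seen. Samples were grouped by title. An exact permutation test was not used, since 2 against 2 libraries cannot reach the threshold. Libraries sharing a replicate number did not deviate together: across 14050 genes the correlation of replicate 1 deviations between groups was -0.032, so the replicate number was not used as a block.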

Additional observations from a re-analysis of the deposited data

How the results depend on the processing

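Over 12 alternatives, 113 of 120 refits of the 10 genes kept their direction and their side of the threshold. The exceptions were Snap25, with log2 fold changes of 0.027 with scaling by library size alone and from -0.32 to 0.19 with 1 library left out, Cplx1, with 0.038 and from -0.13 to 0.10 in the same fits, and Syt4, which passed without shControl replicate 2. The number of the 10 genes called lower was 0 to 1 with 1 library left out, and 0 were called higher in any fit. Scaling by library size alone moved the median of all tested genes from -0.01 to 0.07 and that of the 10 genes to -0.29, 0 of them with an unadjusted p under 0.05. Over all genes it called 28 lower, and DESeq2 called 39 lower and 30 higher. With 1 library left out, 17 to 334 genes were called lower and 27 to 280 higher. A group of 1 is then assumed to vary like the other. With a replicate block the median of the 10 genes was -0.37, 0 passed, 4 had an unadjusted p under 0.05, and 172 genes were called in all. The cause of these changes was not tested. Depth limits the genes with few counts, such as Syn1 with 26 in 1 library, which has the largest SE of the 10.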

Other observations

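The following genes were chosen after their values were seen. Of the 24 SNAREs that work in cells of all kinds, 4 had both knockdown libraries above both controls and 3 below, where 19.6% and 21.7% of all tested genes did. Those above were Vamp3, Snap23, Stx3 and Gosr1, none past the threshold, and those below were Ykt6, which fell, and Stx7 and Stx4a, which did not pass. Vamp3, the vesicle SNARE of constitutive secretion and a close relative of Vamp2, measured 54.0, 46.1, 62.6 and 70.8 CPM in shControl 1 and 2 and triple knockdown 1 and 2 (log2 fold change 0.41, SE 0.14, edgeR adjusted p = 0.129). Snap23, a relative of Snap25 that is not specific to neurons, measured 23.3, 19.2, 24.8 and 27.9 CPM (0.30, SE 0.16, adjusted p = 0.44 in edgeR). Sypl, a relative of synaptophysin, measured 47.6, 48.9, 59.2 and 64.0 CPM (0.35, SE 0.14, adjusted p = 0.219 in edgeR), and Vamp1, a second neuronal synaptobrevin, 2.37, 3.23, 4.05 and 4.23 CPM (0.59, SE 0.29, adjusted p = 0.394 in edgeR). Stx7, an endosomal syntaxin, measured 70.7, 69.4, 51.1 and 58.2 CPM (-0.36, SE 0.14, adjusted p = 0.201 in edgeR). Stx4a, a plasma membrane syntaxin that is not specific to neurons, measured 25.4, 26.3, 21.9 and 22.1 CPM (-0.23, SE 0.16, adjusted p = 0.589 in edgeR). Other genes on the lower side included Prrt2, a regulator of SNARE assembly, at 2.32, 2.25, 0.80 and 1.37 CPM (-1.10, SE 0.41, adjusted p = 0.199 in edgeR) and Bsn, the active zone scaffold bassoon, at 2.51, 3.53, 1.49 and 2.08 CPM (-0.74, SE 0.35, adjusted p = 0.362 in edgeR). The difference between a presynaptic gene and its relative was not tested.

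Rest measured 4.46, 5.41, 7.68 and 6.71 CPM, with both knockdown libraries above both controls (log2 fold change 0.56, SE 0.23, unadjusted p = 0.015, edgeR adjusted p = 0.251). Of all tested genes, 19.6% had both knockdown libraries above both controls. An unadjusted p under 0.05 was found for 12% in either direction, of which the lower side made up 6.85% of tested genes. Hmg20b, a subunit of the complex that REST recruits, measured 16, 14.0, 10.2 and 10.8 CPM (-0.52, SE 0.18, adjusted p = 0.142 in edgeR). Neither passed the threshold. Both were picked from the list of 12 REST and LSD1-CoREST genes, of which 10 had a fold change below 0 and 2 above. Of all tested genes, 51.1% had a fold change below 0. The part of REST in the presynaptic values was not tested.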
